A study of Ovis aries with 8 samples.

Results

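The autophagy machinery and its receptors were followed in fetal sheep hepatocytes, the parenchymal cells of the liver, cultured with or without metformin, a biguanide drug used against diabetes. The genes are the rows of the deposited expression table whose symbol begins with ATG, ULK or WIPI and a digit, or with GABARAP or MAP1LC3, together with 16 named receptors, lipid kinase subunits and regulators. This rule found 42 rows among 27057. PIK3R4 and UVRAG, which the rule also names, and MAP1LC3B and WIPI1 were not analysed here because no row carried these symbols. Of all rows 18085 carried a symbol, and whether these genes lie among the rest was not examined. The data are 8 polyadenylated RNA libraries of Ovis aries. Each of 4 numbered hepatocyte preparations gave 1 library labelled basal and 1 labelled metformin, and the metformin cells were exposed for 24 h. The breed, genotype and fetal age, the dose and vehicle of the drug, and whether each preparation was a separate animal are not given in the labels. Each p-value therefore rests on the spread between preparations, which may be technical. In the fits below the spread of a gene was moderated with that of other genes.

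Autophagy encloses cytoplasm in a double membrane, the autophagosome, and delivers it to the lysosome. A kinase complex around ULK1 starts the process, a lipid kinase complex around PIK3C3 marks the forming membrane with phosphatidylinositol 3-phosphate (PI3P), and a pair of ubiquitin-like conjugation systems attaches proteins of the ATG8 family (LC3 and GABARAP) to it. Receptors such as SQSTM1 bind both ubiquitinated cargo and ATG8 proteins and are themselves degraded with the cargo. In the liver autophagy supplies amino acids and lipids during fasting, and its start is promoted by AMP-activated protein kinase, which metformin is known to activate, and restrained by mTORC1. Transcript levels measure none of the steps of this flux.

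Values are FPKM, fragments per kilobase of transcript scaled to the mapped total of the library, so levels can be set side by side between genes. The summed FPKM of a library was 1024543 to 1257764, with 12733 to 13293 genes at an FPKM of 1 or more. Read depth behind these values is unknown. A gene was tested if 4 or more of the 8 libraries had an FPKM of 1 or more. Tests were made with limma on log2(FPKM + 1), with the preparation as a block and Benjamini-Hochberg adjustment over all genes tested, and the threshold was an adjusted p of 0.05. Log2 changes are on this scale, which understates changes of genes at low FPKM, and are given with their standard errors. Hepatocyte transcripts dominated the marker lists: the summed FPKM of 9 hepatocyte markers ranged over 19561 to 31207 without and 10465 to 26214 with metformin. Another marker, AHSG, is left out of these sums because 3 of its 8 values are missing. Transcripts of other liver cells were also present. The sums of 8 stellate and fibroblast markers were 1686 to 3446 and 715 to 1967, those of 8 endothelial markers 85.8 to 364 and 73.0 to 285, those of 8 macrophage markers 680 to 1453 and 985 to 1588, those of 4 cholangiocyte markers 87.0 to 273 and 80.8 to 163, and those of 3 erythroid markers 1.38 to 64.5 and 1.78 to 45.6. With metformin 5 of these 9 hepatocyte markers fell and APOB rose (log2 change 1.24 ± 0.16). The falls were HNF4A (-2.10 ± 0.17), AFP (-1.11 ± 0.12), APOA1 (-1.11 ± 0.13), TTR (-0.97 ± 0.19) and TF (-0.77 ± 0.18). HNF4A had a mean FPKM of 55.0 without and 11.7 with metformin, with no overlap between the groups. AHSG fell in a fit that rests on the 2 preparations with both values. Further, 7 of 8 stellate markers and 4 of 7 tested endothelial markers fell. Of 8 macrophage markers 4 fell while CD68, a lysosomal protein, rose. Of 3 tested cholangiocyte markers 1 fell and SOX9 rose, and neither of the 2 tested erythroid markers passed. Among all genes tested 24.1% fell and 19.8% rose at the threshold, and with so few markers in a list these counts are a description. No marker analysed was listed at 0 in all libraries. In bulk RNA fewer cells of a type and less RNA per cell cannot be told apart, and the part of cell composition in the changes below was not tested.

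Of the 42 autophagy genes 41 were tested. Metformin libraries had 13 of them higher and 2 lower at the threshold, and 26 did not pass. Among all 13141 genes tested 43.9% passed, 19.8% as higher and 24.1% as lower. The corresponding shares of the 41 autophagy genes were 31.7% and 4.88%. Their median log2 change was 0.08, against -0.04 over all genes tested. The rises were SQSTM1, OPTN and TAX1BP1 among the receptors, ATG4D, ATG12, ATG10 and ATG5 of the conjugation systems, RB1CC1 and TBK1 among initiation genes, PIK3C3 and ATG14 of the lipid kinase complex, the PI3P effector WIPI2 and the tethering factor EPG5. ULK2 and VMP1 fell. The metformin values lay above all basal values for 11 autophagy genes and below them for 2, where 13.3% and 12.6% of all genes tested had such groups. SQSTM1 and ATG4D were the genes of the set whose fitted change was at least 2-fold; 9.9% of all genes tested passed the threshold with a change of that size.

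**Figure D1:**
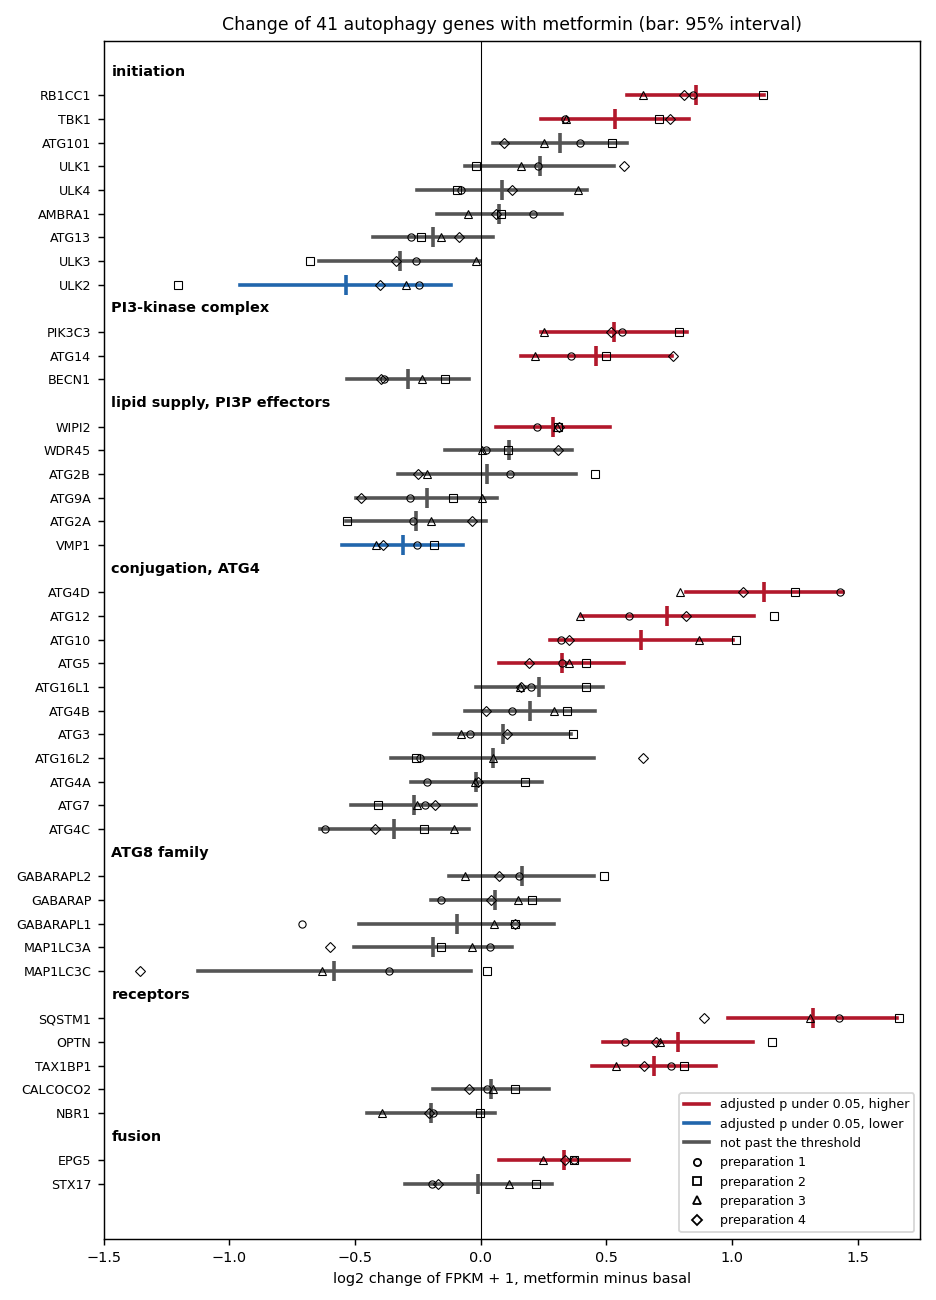
The plot shows the log2 change of FPKM + 1 (metformin minus basal, x axis) of the 41 autophagy genes tested, grouped by role. Ticks are the fitted change, bars its 95% interval without adjustment for the number of genes, open symbols the change in each preparation, and colours the call at an adjusted p of 0.05. SQSTM1 and ATG4D lie farthest to the right at 1.32 and 1.13, and the 5 ATG8 genes lie around 0 or below it with no call.

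The cargo receptors held the member with the highest mean FPKM in each group and the largest change, both SQSTM1, although GABARAPL1 exceeded it in the basal libraries of preparations 1 and 2 and GABARAP in that of preparation 1. SQSTM1, also named p62, links ubiquitinated cargo to the forming membrane and holds the antioxidant regulator KEAP1. In preparations 1 to 4 it stood at 579, 528, 687 and 1134 FPKM in the basal libraries and at 1554, 1676, 1704 and 2102 with metformin. The basal library of preparation 4 stood above the other basal libraries, and every metformin value exceeded it. Its mean of 732 ± 276 FPKM in basal libraries rose to 1759 ± 238 (SD, n = 4 in each group, as for all means below), a log2 change of 1.32 ± 0.14 with an adjusted p of 0.00126. Among all genes tested SQSTM1 moved from rank 190 by mean FPKM in basal libraries to rank 77 with metformin. Its share of the summed FPKM of the 42 autophagy genes was 16.8% to 29.0% in basal and 35.5% to 41.8% in metformin libraries. Without SQSTM1 that sum ranged over 2356 to 2850 FPKM without and 2490 to 3051 with metformin, and the groups overlapped.

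OPTN, a receptor for mitochondria and bacteria, and TAX1BP1, a receptor for protein aggregates, rose as well. OPTN stood at 136, 91.3, 69.5 and 80.9 FPKM in the basal libraries of preparations 1 to 4 and at 204, 205, 114 and 132 with metformin (log2 change 0.79 ± 0.13, adjusted p = 0.00383). The basal value of preparation 1 lay above the metformin values of preparations 3 and 4, so the groups overlapped while each preparation rose. Without the block OPTN did not pass (adjusted p = 0.0699). TAX1BP1 went from 19.3, 19.6, 23.4 and 29.9 FPKM to 33.4, 35.1, 34.4 and 47.6, with no overlap (0.69 ± 0.10, adjusted p = 0.00318). TBK1, the kinase that phosphorylates OPTN and SQSTM1, went from 11.6, 8.22, 12.5 and 12.0 FPKM to 14.9, 14.1, 16.1 and 21.0, with every metformin value above the basal ones (0.53 ± 0.12, adjusted p = 0.0137). Omitting preparation 2 or 4, or the block, ended the call (adjusted p of 0.0531, 0.0545 and 0.0685).

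The other receptors did not pass. CALCOCO2, also named NDP52, a receptor for bacteria and mitochondria, had basal values of 117 to 178 FPKM and metformin values of 121 to 181 (log2 change 0.04, 95% interval -0.19 to 0.27). NBR1, which binds ubiquitinated aggregates much as SQSTM1 does, was the steadiest member in basal libraries, at 98.2 to 102 FPKM, a coefficient of variation of 1.77%. With metformin it spread over 74.5 to 102 FPKM (-0.20, -0.45 to 0.06). The change of SQSTM1 exceeded that of NBR1 by 1.61, 1.67, 1.70 and 1.10 on the log2 scale in preparations 1 to 4, and that of OPTN exceeded that of CALCOCO2 by 0.55, 1.02, 0.66 and 0.75. In all, 6 such pairs of related genes were compared with an exact sign-flip permutation test over preparations, 2-sided. All had a p of 0.125, raw and after adjustment over the 6, the smallest that 4 preparations allow.

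Among the genes that start autophagosome formation RB1CC1, also named FIP200, changed most. It is the scaffold of the ULK kinase complex. RB1CC1 stood at 39.1, 34.3, 45.6 and 55.9 FPKM in basal and at 71.1, 76.0, 71.9 and 98.7 in metformin libraries. The groups did not overlap, and their means were 43.7 ± 9.34 and 79.4 ± 13.1 FPKM (log2 change 0.86 ± 0.12, adjusted p = 0.00219). Its partners in the complex did not pass. ATG13, the regulatory subunit, had log2 changes of -0.28, -0.24, -0.16 and -0.09 (fitted -0.19, 95% interval -0.43 to 0.05), and ATG101, which stabilises ATG13, had 0.40, 0.52, 0.25 and 0.09 (0.32, 0.05 to 0.58, adjusted p = 0.0582). The change of RB1CC1 exceeded that of ATG13 by 0.80 to 1.36 over the 4 preparations.

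The fitted changes of the kinases ULK1 and ULK2 differed in sign, but only that of ULK2 passed. ULK1, the main initiating kinase, had 30.5, 34.6, 20.7 and 20.0 FPKM in basal libraries and 35.8, 34.1, 23.2 and 30.2 with metformin. It was higher in 3 of 4 preparations and did not pass (log2 change 0.23, 95% interval -0.06 to 0.53, adjusted p = 0.165). ULK2, its close paralog, fell from 10.1, 26.8, 20.6 and 14.997 FPKM to 8.39, 11.1, 16.6 and 11.1 (-0.54 ± 0.18, adjusted p = 0.0450). The groups of ULK2 overlapped, and preparation 2 changed by -1.20 where the others changed by -0.25 to -0.40. The call of ULK2 was lost without any 1 preparation, with adjusted p of 0.0601, 0.102, 0.0609 and 0.0875 for preparations 1 to 4, without the block (0.238), with the median of ratios (0.0718) or quantile normalization (0.102), and with no filter (0.106). The change of ULK1 was above that of ULK2 by 0.47, 1.19, 0.46 and 0.97. The more distant kinases ULK3 (-0.32, -0.64 to 0.00) and ULK4 (0.08, -0.25 to 0.42, at 1.36 to 2.42 FPKM) did not pass, nor did AMBRA1, a scaffold that couples the ULK and BECN1 complexes (0.07, -0.17 to 0.32).

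In the lipid kinase complex the catalytic subunit and the autophagy-specific subunit rose while BECN1 was lower. PIK3C3, also named VPS34, which makes PI3P, stood at 9.55, 8.56, 12.0 and 10.7 FPKM in basal and at 14.6, 15.5, 14.4 and 15.7 in metformin libraries. The groups did not overlap (log2 change 0.53 ± 0.12, adjusted p = 0.0137), but omitting preparation 1 or 2 raised the adjusted p to 0.0549 or 0.0529. ATG14, which directs the complex to autophagosome formation sites, went from 9.18, 10.2, 7.81 and 7.91 FPKM to 12.0, 14.8, 9.24 and 14.2 (0.46 ± 0.13, adjusted p = 0.0248). Its groups overlapped through the metformin library of preparation 3. ATG14 did not pass without preparation 1 (0.0643), 2 (0.0779) or 4 (0.0879), without the block (0.0967) or with no filter (0.0585).

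BECN1, the scaffold of the complex, had 75.4, 66.6, 69.1 and 74.9 FPKM in basal and 57.5, 60.3, 58.5 and 56.6 in metformin libraries. Every metformin value lay below every basal value, and the log2 change of -0.29 (95% interval -0.53 to -0.05) had an adjusted p of 0.0570, which misses the threshold. It passed with other scalings of the libraries, at 0.0278 with the median of ratios and 0.0109 with quantile normalization, and with no filter (0.0472). Without the block BECN1 did not pass (0.0832), nor with any 1 preparation left out (0.0611 to 0.216). The authors' deposited table gives BECN1 a signed fold change of -1.23 and a q-value of 0.0455. The change of PIK3C3 exceeded that of BECN1 by 0.95, 0.93, 0.49 and 0.91 in preparations 1 to 4.

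**Figure D2:**
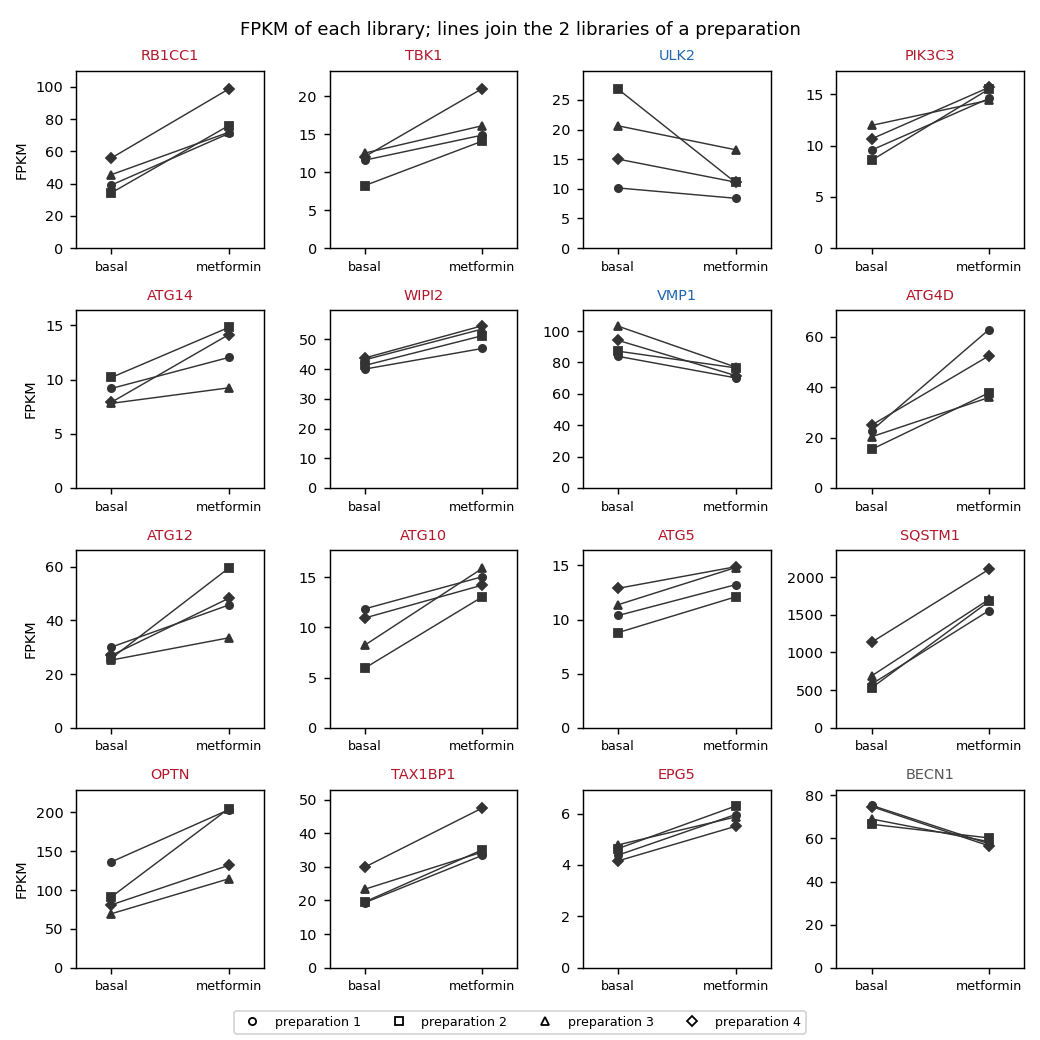
The plot shows FPKM (y axis, from 0) of the 15 autophagy genes past the threshold and of BECN1 in basal and metformin libraries, with lines joining both libraries of a preparation and titles in red for higher, blue for lower and grey for no call. All 4 lines rise for SQSTM1, from between 528 and 1134 to between 1554 and 2102 FPKM, and all 4 fall for ULK2, where preparation 2 falls most.

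Among 6 tested genes that supply lipid to the growing membrane or read its PI3P, 1 rose and 1 fell, and neither change was large. WIPI2, which binds PI3P and recruits the conjugation machinery, went from 40.0, 41.3, 43.1 and 43.8 FPKM to 47.0, 51.3, 53.5 and 54.6, with no overlap between the groups (log2 change 0.29 ± 0.10, adjusted p = 0.0477). VMP1, a lipid scramblase of the endoplasmic reticulum, fell from 83.9, 87.2, 103 and 94.1 FPKM to 70.2, 76.5, 77.1 and 71.7, also without overlap (-0.31 ± 0.10, adjusted p = 0.0431). Both calls lie near the threshold. Leaving out 1 preparation gave adjusted p of 0.0959 to 0.139 for WIPI2 and 0.0529 to 0.128 for VMP1, and without the block they were 0.0934 and 0.0888. Neither passed without the variance trend (0.0569 and 0.0522), nor WIPI2 with quantile normalization (0.0787). The PI3P effector WDR45 (log2 change 0.11), the scramblase ATG9A (-0.22) and the lipid transfer proteins ATG2A (-0.26) and ATG2B (0.03) did not pass. ATG9B, a paralog of ATG9A, had at most 0.243 FPKM and was not tested.

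The conjugation systems attach ATG12 to ATG5 and ATG8 proteins to lipid. ATG4D, one of 4 cysteine proteases that trim ATG8 proteins and release them from membranes, went from 22.7, 15.3, 20.3 and 24.9 FPKM to 62.9, 37.8, 35.9 and 52.5. No basal value reached the lowest metformin value, and the means were 20.8 ± 4.14 and 47.3 ± 12.8 FPKM (log2 change 1.13 ± 0.13, adjusted p = 0.00149). Its paralogs did not pass: ATG4A had a log2 change of -0.02 (95% interval -0.28 to 0.24), ATG4B of 0.20 (-0.06 to 0.45) and ATG4C of -0.34 (-0.64 to -0.05, adjusted p = 0.0627). Set against the mean change of these paralogs, that of ATG4D was larger by 1.66, 1.15, 0.74 and 1.18 in preparations 1 to 4. In basal libraries ATG4A and ATG4D had similar mean levels, 21.6 and 20.8 FPKM, and with metformin the mean of ATG4D was the highest of the family.

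ATG12, the ubiquitin-like protein joined to ATG5, rose from 30.0, 25.9, 25.2 and 27.0 FPKM to 45.7, 59.5, 33.5 and 48.2, with no overlap (log2 change 0.74 ± 0.14, adjusted p = 0.00746). ATG10, the E2-like enzyme that transfers ATG12, went from 11.8, 5.94, 8.22 and 10.9 FPKM to 15.03, 13.02, 15.9 and 14.2 (0.64 ± 0.15, adjusted p = 0.0156). Its metformin values lay closer together than its basal ones, and the call was lost on omitting preparation 2 (0.0573) or the block (0.0591). The acceptor ATG5 had 10.4, 8.79, 11.4 and 12.9 FPKM in basal and 13.2, 12.1, 14.8 and 14.9 in metformin libraries, with overlapping groups (0.32 ± 0.10, adjusted p = 0.0429). ATG5 did not pass when any 1 preparation was left out (0.0713 to 0.139), without the block (0.160) or with no filter (0.0615).

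The remaining conjugation genes did not pass. ATG7, the E1-like enzyme that serves both systems, was lower in all 4 preparations, from 14.2, 11.1, 11.6 and 13.9 FPKM to 12.0, 8.13, 9.59 and 12.1 (log2 change -0.27, 95% interval -0.52 to -0.02, adjusted p = 0.0777). ATG16L1, which places the ATG12 conjugate on the membrane, went from 13.5, 13.1, 14.96 and 15.2 FPKM to 15.7, 17.9, 16.8 and 17.1. Its groups did not overlap, yet the change missed the threshold (0.23, -0.02 to 0.49, adjusted p = 0.113). ATG3, the E2-like enzyme for ATG8 proteins and the most abundant conjugation gene at 70.3 to 134 FPKM, had a log2 change of 0.09, and ATG16L2, a paralog of ATG16L1, one of 0.05.

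The ATG8 proteins are the substrates of these systems, and none of the 5 genes analysed passed. GABARAP had 661, 497, 539 and 655 FPKM in basal and 592, 572, 597 and 673 in metformin libraries (log2 change 0.06, 95% interval -0.20 to 0.31). GABARAPL1 had 624, 674, 332 and 509 against 381, 742, 345 and 559 (-0.10, -0.48 to 0.29). Its log2 change was -0.71 in preparation 1 and 0.05 to 0.14 in the other 3. GABARAPL2 (0.16, -0.13 to 0.45) and MAP1LC3A (-0.19, -0.50 to 0.12) lay between 127 and 240.2 FPKM over all libraries.

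MAP1LC3C, at 0.326 to 2.55 FPKM the least abundant ATG8 gene, was above 1 in 3 basal libraries and 1 metformin library and so just met the filter (log2 change -0.58, -1.13 to -0.04, adjusted p = 0.0773, or 0.0485 without preparation 2). The summed FPKM of the 5 genes ranged over 1272 to 1635 without and 1329 to 1666 with metformin. The shares within it overlapped between the groups for its main genes. GABARAP took 33.3% to 42.4% of the sum without and 34.3% to 45.0% with metformin, and GABARAPL1 took 26.1% to 45.2% and 26.0% to 44.5%. SQSTM1 was below the sum of these 5 genes in every basal library and above it in every metformin library, in preparation 2 narrowly, at 1676 against 1666 FPKM. The sum does not hold MAP1LC3B. Reads of similar paralogs could be split by the authors' estimation, which was not tested.

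**Figure D3:**
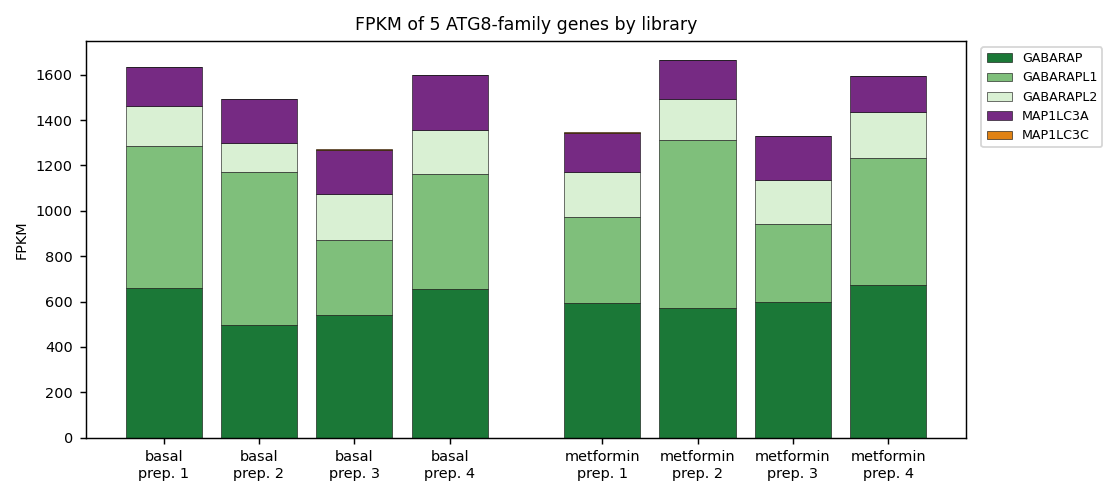
Stacked bars give the FPKM (y axis, from 0) of 5 ATG8-family genes in each basal and metformin library. Totals are 1272 to 1635 in basal and 1329 to 1666 in metformin libraries, GABARAP and GABARAPL1 form most of each bar, and MAP1LC3C, at most 2.55 FPKM, is too low to be seen.

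Both fusion genes were expressed at low levels. EPG5, a tether between autophagosomes and late endosomes or lysosomes, went from 4.38, 4.64, 4.78 and 4.16 FPKM to 5.96, 6.29, 5.87 and 5.50, with no overlap (log2 change 0.33 ± 0.11, adjusted p = 0.0451). With 1 preparation left out the adjusted p was 0.0669 to 0.153, without the block 0.0964, with no filter 0.0781 and with a mean FPKM of at least 5 required 0.148. STX17, the SNARE of the mature autophagosome, had a log2 change of -0.01 (95% interval -0.30 to 0.28), higher in 2 preparations and lower in 2.

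The preparations gave similar counts. Of the 41 genes tested 23, 27, 25 and 25 were higher with metformin in preparations 1 to 4, with median log2 changes of 0.04, 0.20, 0.05 and 0.09. Over all genes tested the medians were -0.07, 0.07, 0.00 and -0.13, and 44.9%, 54.0%, 49.7% and 41.5% of these genes were higher. A total of 17 autophagy genes were higher and 9 lower in all 4 preparations, where 28.0% and 32.2% of all genes tested were. Between basal libraries the coefficient of variation of a member was 1.77% to 57.3%, with a median of 16.5%. The most variable were MAP1LC3C, ULK2 and SQSTM1, at 57.3%, 39.6% and 37.7%.

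The authors' deposited table gives a p-value for each of these genes and a q-value for 20 of the 42. Of these q-values 10 were under 0.05. They belonged to SQSTM1 (0.0285), ATG4D (0.0282), RB1CC1 (0.0279), TAX1BP1 (0.0267), OPTN (0.0345), ATG12 (0.0489), WIPI2 (0.0261), TBK1 (0.0458), VMP1 (0.0367) and BECN1 (0.0455). Among genes past the threshold here, ATG10 (0.0670) and ULK2 (0.129) had a q-value above 0.05. ATG14, PIK3C3, ATG5 and EPG5, which also passed here, had no q-value.

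Other genes of the pathway were taken from a list of 91 entries, of which 72 had a row and 70 were tested. Of these 22 rose, 3 fell and 45 did not pass with metformin, with a median log2 change of 0.13. The shares were 31.4% higher and 4.29% lower, where 19.8% and 24.1% of all genes tested were called and their median was -0.04. The list's largest rises were USP13, a deubiquitinase that acts on BECN1, from 5.32 ± 1.05 to 20.7 ± 5.15 FPKM (log2 change 1.76 ± 0.13, adjusted p = 0.000683), and the lysosomal protease CTSB, from 1025 ± 677 to 2842 ± 1315 (1.63 ± 0.18, adjusted p = 0.00126). CTSB varied widely between preparations, from 310.1 to 1926 FPKM in basal and from 1510.1 to 4632 in metformin libraries. Next came FAM134B, a receptor for autophagy of the endoplasmic reticulum also named RETREG1 (1.00 ± 0.26, adjusted p = 0.0211), and the lysosomal cholesterol exporter NPC1 (0.95 ± 0.15, adjusted p = 0.00338). The 3 that fell were NIPSNAP1, USP10 and TMEM41A. NIPSNAP1, a mitochondrial protein that recruits autophagy receptors, went from 108 ± 71.2 to 29.8 ± 18.1 FPKM (-1.77 ± 0.14, adjusted p = 0.000683). The deubiquitinase USP10 (-0.38 ± 0.12, adjusted p = 0.0441) and TMEM41A (-0.38 ± 0.12, adjusted p = 0.0359) fell less. TMEM41B, a scramblase of the same family as TMEM41A, rose (0.95 ± 0.12, adjusted p = 0.00183).

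Counted by role, 3 of 7 transcription regulators, 6 of 20 further regulators, 2 of 15 mitophagy and ER-phagy genes, 5 of 9 fusion genes and 6 of 19 lysosome genes rose. The falls were 2 among the further regulators and 1 among the mitophagy and ER-phagy genes. With so few genes in a role, these counts are a description beside the 19.8% of all genes tested that rose. The related factors TFEB, TFE3 and MITF, which activate lysosome and autophagy genes, were chosen after their values were seen. MITF, at 18.4 ± 2.58 FPKM in basal libraries, rose to 31.1 ± 3.09 (log2 change 0.73 ± 0.11, adjusted p = 0.00302), while TFEB (0.33 ± 0.16, adjusted p = 0.135) and TFE3 (0.25 ± 0.10, adjusted p = 0.0758) did not pass.

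**Figure D4:**
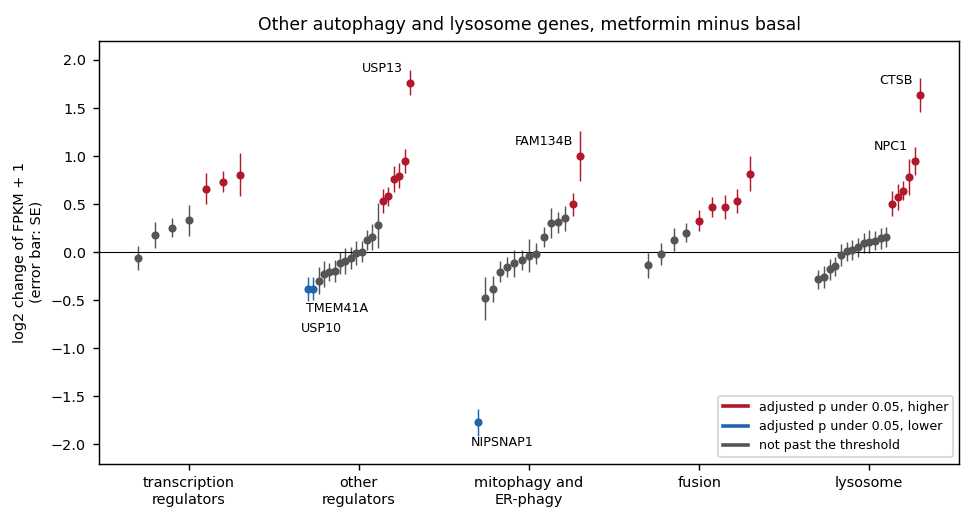
Points are the log2 change of FPKM + 1 (metformin minus basal, y axis) of the 70 tested genes of the wider autophagy list, ordered by size within each role, with standard errors and coloured by call at an adjusted p of 0.05. USP13 at 1.76 and CTSB at 1.63 lie highest and NIPSNAP1 at -1.77 lowest, and 45 of the 70 have no call.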

How the data were processed

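The authors deposited 1 table of FPKM values per gene and library, made with Cufflinks on Oar_v3.1, per the submitters' processing notes. Neither the aligner nor the annotation release nor any version is given in the sources used here. The authors' group means of FPKM, a fold change whose sign gives the direction (a score), p-values and q-values stand in the same deposited table, and 99 fills the q-value column where none exists. Library columns were matched to samples by the descriptions in the labels. In 4 cells the deposited value is a placeholder beyond the range of expression, 3 of them for the hepatocyte marker AHSG and none for an autophagy gene; these were treated as missing, also in library sums. FPKM scales by each library's total, so a rise of abundant transcripts lowers other values, and the reads behind a value are unknown, so no counting interval is given. The lowest values step in shared ratios between libraries: against the basal library of preparation 1 the most common log2 ratio was -0.05 to 0.34, a relative measure only.

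The test, run in limma 3.58.1 (R 4.3.3) and 2-sided, used log2(FPKM + 1) of genes at an FPKM of 1 or more in 4 or more of the 8 libraries, the preparation as a block, moderated variances and a trend of variance on level, with Benjamini-Hochberg adjustment over all 13141 genes. The pairing comes from the preparation numbers in the labels. Both libraries of a preparation deviated together from their group means, with r across genes of 0.489 to 0.585. The fit was also run on simulated data with far fewer changed genes than were called here. No support for the calls is drawn from that run. Alternatives were no block, a pseudocount of 0.1, no filter, a mean FPKM of at least 5, median-of-ratios or quantile scaling, no variance trend, and leaving out each preparation.

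The members and lists were chosen with earlier results of these data known. Values in each library are given for members past the threshold and for ULK1, BECN1, ATG5, ATG7, ATG16L1, GABARAP and SQSTM1 whatever their values. GABARAPL1 was added after its values were seen. Of the other autophagy genes the 4 largest rises and the 4 largest falls past the threshold were named, of which there were 3 falls. TMEM41B was named beside TMEM41A after its values were seen. All 42 member symbols matched a RefSeq gene by name; no sequences or coordinates were used.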

Additional observations from a re-analysis of the deposited data

Results flagged for a closer look

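Of 123 groups of 4 values (basal FPKM, metformin FPKM and paired log2 change of 41 genes), 6 held a value set apart from the other 3 by Dixon's gap criterion, and chance gives about 1 in 20 such groups. Among paired log2 changes, that of GABARAPL1 was -0.71 in preparation 1, that of ATG16L1 was 0.42 in preparation 2, that of ULK2 was -1.20 in preparation 2 and that of WIPI2 was 0.23 in preparation 1, a value set apart by only a small distance because the other 3 lay close together. Among FPKM values, ATG2A stood at 49.9 in the basal library of preparation 2, and TAX1BP1 at 47.6 in the metformin library of preparation 4.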

How the results depend on the processing

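Of the 15 autophagy genes that passed, 5 (SQSTM1, ATG4D, RB1CC1, ATG12 and TAX1BP1) did so under all 11 alternatives. Without the replicate block 6 autophagy genes rose and 0 fell, as did 10 and 0 of the other autophagy genes and 1272 and 1246 of all genes, and 9 of the 15 calls ended. With 1 preparation left out 6 to 10 autophagy genes rose and 0 to 1 fell, 13 to 22 of the other autophagy genes rose and 1 to 4 fell, and of all genes 1679 to 2307 rose and 1995 to 2923 fell; fewer libraries were then tested. Without the variance trend 1 autophagy gene fell, and with quantile normalization 5 of the other autophagy genes fell. The median log2 change of the autophagy genes stayed between 0.07 and 0.14 with 1 preparation left out. With another scaling ATG101 (adjusted p = 0.0244, median of ratios), NBR1 (0.0307) and ATG16L1 (0.0490, both quantile) passed, while ULK2 (0.0718 and 0.102) and, with quantile normalization, WIPI2 (0.0787) no longer did. Genes near 0 that never passed changed sign: STX17 to 0.0014 with the median of ratios and 0.14 with quantile normalization, and CALCOCO2 to -0.031 with quantile normalization. With 1 preparation left out the ranges were -0.15 to 0.15 for ATG16L2, -0.12 to 0.12 for ATG2B, -0.0067 to 0.14 for ATG3, -0.082 to 0.048 for ATG4A, -0.17 to 0.11 for GABARAPL1, -0.085 to 0.053 for STX17 and -0.017 to 0.14 for ULK4. The cause was not tested.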
